A study of Mus musculus with 12 samples.

Results

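The genes described here are the 10 best known components and regulators of the linear ubiquitin system, taken by symbol from the 55281 genes of the deposited table. They are the LUBAC subunits Rnf31 (HOIP), Rbck1 (HOIL-1) and Sharpin, the deubiquitinases Otulin and Cyld with the adaptor Spata2, the A20 gene Tnfaip3 with its partner Tnip1 (ABIN-1), and the chain-reading kinase subunits Ikbkg (NEMO) and Tab2. Each symbol matched 1 row, and all 10 genes passed the filter on low counts. RNA of gonadal white adipose tissue (GWAT) was sequenced from male mice that all carried Hoip fl/fl alleles, either without the Cre transgene (WT, AdipoQ.Cre-) or with it (HoipA-KO, AdipoQ.Cre+). The promoter of the adiponectin gene drives this Cre in mature adipocytes, so that the other cells of the tissue keep an intact Rnf31 gene. Mice of both genotypes went onto a control diet with 14% fat (CD, the figure of the labels, from which the study's methods differ slightly) or a high-fat diet with 60% fat (HFD) at 6 weeks of age and stayed on it for 16 weeks. The age given for the mice of all libraries was 22 to 24 weeks. The 4 groups had 3 libraries each, and every library pooled tissue of 3 mice, so the spread between replicates is a spread between pools. The Cre line came from a mixed B6;FVB stock.

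LUBAC is the only known ligase that joins ubiquitin molecules head to tail into linear chains. HOIP holds the catalytic centre, whereas HOIL-1 and SHARPIN bind and stabilize it. The chains are laid on signaling complexes of TNF, interleukin-1 and Toll-like receptors, where NEMO reads them to activate the IκB kinases and where they hold back caspase-8 and RIPK1-driven cell death. OTULIN cleaves linear chains, CYLD cleaves linear and lysine-63-linked chains and is brought to LUBAC by SPATA2, and A20 and ABIN-1 bind the chains and restrain the signal. A20 is itself a classic target gene of NF-κB.

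Levels are given as CPM, the usual counts per unit of library size, with TMM factors over all 12 libraries. Between 30513500 and 60540260 counts per library fell on genes, so that the floor of 3 counts lay at 0.0496 to 0.0983 CPM, and the lowest value of any member was 8.58 CPM. The 3 WT CD libraries correlated less well with each other (Pearson's r 0.785 to 0.907 across genes, which are not independent replicates) than those of the other groups (0.971 to 0.993). WT CD replicate 3 carried male germ cell transcripts (5860 CPM summed over 4 markers) and WT CD replicate 2 epididymal transcripts (14680 CPM summed over 7 markers), and HoipA-KO HFD replicate 1 had 1285 CPM of the latter. Smaller epididymal sums were found in HoipA-KO HFD replicate 3 (97.77 CPM) and HoipA-KO CD replicate 3 (78.77 CPM). WT CD replicate 2 also had 279.5 CPM of the male germ cell markers and was kept in both fits. Comparisons give the fit over 11 libraries without WT CD replicate 3, and beside it the fit over all 12. The authors' deposited comparisons also leave out WT CD replicate 3. Where WT CD replicate 1 or 2 is left out of the 11 libraries as well, 1 WT CD library remains, which is assumed to vary like the libraries of the other groups. A gene was called changed at an adjusted p under 0.05 by edgeR's quasi-likelihood test over 18427 genes.

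The promoters that hold an NF-κB motif are shown first, since A20 is a known target of this factor and Tnip1 was the member with the largest called change. The reference table of RefSeq promoters (GRCm38.p6, 250 bases before the start site and 50 from it on) had 15 windows for 9 of the 10 members. Sharpin had no entry. The NF-κB consensus motif (10 bases, searched on both strands) stood in windows of 3 of the 9 members, compared with 5.14% of all 27025 genes with a window. By window it stood in 3 of 15, compared with 4.51% of all 32851 windows. The members were chosen by name and include a known target, so these shares are description only. Capitals mark the motif in the sequences, which run 5′ to 3′ along the strand of the gene. The Tnip1 window lies at chr11:54962891-54963190 on the minus strand and has 3 overlapping matches that form a palindrome from base -58 to base -47 relative to the start site. In Tnfaip3, whose window lies at chr10:19015361-19015660 on the minus strand, matches begin at bases -125 and -12. These bases count from the RefSeq start site of the window. The gene as annotated by GENCODE spans 19000910 to 19015657, so both matches lie inside it. The other Tnfaip3 window, at chr10:19011914-19012213, had no match. Cyld, at chr8:88696778-88697077 on the plus strand, has 1 match at base -155. The letters of the motif are not found in the windows of Rnf31, Rbck1, Otulin, Spata2, Ikbkg and Tab2, and a match in letters does not show that the factor binds.
Tnip1: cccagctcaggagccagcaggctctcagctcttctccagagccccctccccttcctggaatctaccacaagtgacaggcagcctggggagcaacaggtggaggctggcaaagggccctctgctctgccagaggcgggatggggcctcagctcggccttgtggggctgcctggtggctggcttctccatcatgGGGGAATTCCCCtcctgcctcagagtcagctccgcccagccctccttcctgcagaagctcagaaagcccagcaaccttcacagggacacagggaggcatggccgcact
Tnfaip3: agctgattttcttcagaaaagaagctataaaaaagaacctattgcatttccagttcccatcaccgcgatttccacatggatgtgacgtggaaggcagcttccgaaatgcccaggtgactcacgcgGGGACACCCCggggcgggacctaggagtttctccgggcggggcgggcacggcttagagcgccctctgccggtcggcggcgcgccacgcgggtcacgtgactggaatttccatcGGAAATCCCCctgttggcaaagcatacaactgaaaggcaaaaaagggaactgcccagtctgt
Cyld: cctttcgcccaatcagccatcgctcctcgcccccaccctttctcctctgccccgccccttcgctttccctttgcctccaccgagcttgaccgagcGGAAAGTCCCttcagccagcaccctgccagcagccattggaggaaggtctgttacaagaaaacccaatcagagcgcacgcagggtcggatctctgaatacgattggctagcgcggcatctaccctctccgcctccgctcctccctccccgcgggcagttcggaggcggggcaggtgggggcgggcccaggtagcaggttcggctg

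Rnf31 (ENSMUSG00000047098, chromosome 14, 55591708 to 55603693, plus strand, GRCm38) is the targeted gene, and its level did not separate the genotypes. The 3 WT CD libraries had 20.3, 20.7 and 12.6 CPM, and the 3 HoipA-KO CD libraries had 17.9, 18.4 and 21.7 CPM. On HFD, Rnf31 was at 18.3, 17.9 and 19.8 CPM in WT and at 19.7, 19.1 and 22.5 CPM in HoipA-KO. The genotypes overlapped on both diets, and WT CD replicate 3 was the lowest of the 12 libraries. HoipA-KO against WT gave a log2 fold change of -0.08 on CD (95% interval -0.35 to 0.18, adjusted p = 0.654) and of 0.13 on HFD (-0.11 to 0.37, adjusted p = 0.491). With all 12 libraries the value on CD was 0.08 (adjusted p = 0.798). These counts sum all transcripts of the gene over all cells of the tissue. They do not resolve the deleted part and so do not check the genotype label. Rnf31 overlaps Irf9 by 123 bases on the same strand.

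Sharpin (ENSMUSG00000022552, chromosome 15, 76347040 to 76351111, minus strand) was the LUBAC subunit whose mRNA was higher in HoipA-KO tissue on both diets. On CD the WT libraries had 25.5, 28.0 and 26.2 CPM and the HoipA-KO libraries 34.0, 34.0 and 39.4 CPM. On HFD they had 25.5, 25.4 and 25.3 CPM in WT and 30.5, 36.1 and 38.1 CPM in HoipA-KO. Every HoipA-KO library lay above every WT library, and the 3 WT HFD libraries differed by less than 1 CPM. The rise was 1.34-fold on CD (log2 fold change 0.42, SE 0.134, adjusted p = 0.0333) and 1.375-fold on HFD (0.46, SE 0.119, adjusted p = 0.0391). Over all 12 libraries the adjusted p was 0.0482 on CD and 0.104 on HFD, at log2 fold changes of 0.39 and 0.44. The effects on the 2 diets differed by 0.04 on the log2 scale (95% interval -0.31 to 0.39, adjusted p = 0.928).

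Both calls of Sharpin lie close to the threshold. On CD the log2 fold change stayed between 0.24 and 0.50 when each library was left out in turn, but the call was kept only without HoipA-KO CD replicate 2 or HoipA-KO HFD replicate 2 (adjusted p 0.0451 to 0.223 over the 11 fits). It was thus lost without WT CD replicate 1 or 2, any WT HFD library, or replicate 1 or 3 of either HoipA-KO group. On HFD the range was 0.39 to 0.55, and the call was lost without any WT HFD library, HoipA-KO CD replicate 1, or HoipA-KO HFD replicate 2 or 3 (highest adjusted p = 0.14). The call on CD was lost as well with DESeq2 size factors (adjusted p = 0.0514), library totals (0.0573), no filter on low counts (0.133), at least 10 counts in every library (0.0553), protein-coding genes only (0.142) and only the 2 groups compared (0.124). On HFD it was lost with no filter (0.0813), protein-coding genes only (0.0504) and WT CD replicates 1 and 3 as controls (0.0944).

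Rbck1 (ENSMUSG00000027466, chromosome 2, 152316334 to 152332653, minus strand) spread widely in WT CD, with 77.9, 49.6 and 45.6 CPM. Its levels were 60.2, 62.5 and 62.8 CPM in WT HFD, 67.3, 59.9 and 79.6 CPM in HoipA-KO CD, and 63.7, 68.6 and 75.4 CPM in HoipA-KO HFD. The HFD groups did not overlap, although the difference was small (log2 fold change 0.16, SE 0.175, adjusted p = 0.547). On CD the groups overlapped (0.12, SE 0.196, adjusted p = 0.663), and the value went from -0.17 without WT CD replicate 2 to 0.47 without WT CD replicate 1, each with 1 WT CD library left. Levels per length divide CPM by the union of exons over all annotated transcripts, which number from 3 for Otulin to 18 for Ikbkg. An order between genes thus also depends on the annotation. Per length of the exons, the order of the LUBAC subunits was the same in 12 of 12 libraries, with Rbck1 highest, Sharpin next and Rnf31 lowest. In WT HFD the levels were 13.4 ± 0.315, 6.65 ± 0.0275 and 3.26 ± 0.173 CPM per kilobase (mean ± SD, n = 3). Over all members in WT HFD, the per-length level was highest for Tab2 (17.8 ± 0.655), Tnip1 (17.2 ± 1.04) and Otulin (15.8 ± 1.12). Tab2 and Tnip1 did not differ beyond their spread, and the range of Tnip1 (16.5 to 18.4) overlapped that of Otulin (15.2 to 17.1). Rbck1 and Sharpin followed, then Ikbkg (6.6 ± 0.216), which was level with Sharpin, and Spata2 (5.07 ± 0.285). The 3 lowest, Cyld (3.6 ± 0.222), Rnf31 and Tnfaip3 (2.99 ± 0.721), lay within their spread of the next in order.

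**Figure D1:**
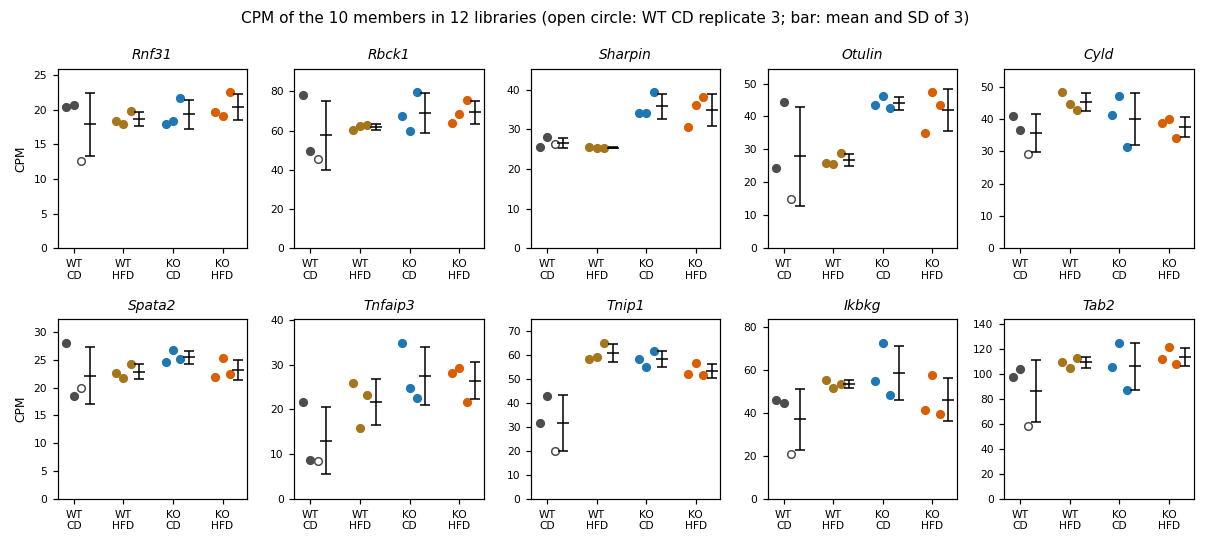
CPM (vertical axis, from 0, own scale per gene) of the 10 members in the 12 libraries, with 1 point per library, the open circle for WT CD replicate 3, and the bar for the mean and SD of 3 libraries per group (KO stands for HoipA-KO). Sharpin lies higher in all 6 HoipA-KO libraries than in all 6 WT libraries, and Tnip1 is lowest in the 3 WT CD libraries (19.8 to 43.0 CPM).

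Otulin (ENSMUSG00000046034, chromosome 15, 27542635 to 27630693, minus strand), the deubiquitinase specific to linear chains, was at 25.8, 25.7 and 29.0 CPM in WT HFD and at 34.9, 47.4 and 43.3 CPM in HoipA-KO HFD. The HFD groups did not overlap, and the log2 fold change was 0.64 (95% interval 0.24 to 1.04), just outside the threshold (adjusted p = 0.0684, and 0.279 over 12 libraries). Leaving out WT CD replicate 1 or 2 brought it past the threshold (adjusted p = 0.0114 and 0.0126, with 1 WT CD library left to enter the shared estimate of the spread), as did DESeq2's Wald test (0.0232). On CD the HoipA-KO libraries stood close together at 43.4, 46.3 and 42.5 CPM, whereas the WT libraries were at 24.4, 44.4 and 15.0 CPM. The library at 44.4 CPM was WT CD replicate 2, the library with the most epididymal transcripts. With it the log2 fold change on CD was 0.36 (SE 0.23, adjusted p = 0.239). Without it the value was 0.86 (adjusted p = 0.0101, against WT CD replicate 1 alone), and with WT CD replicates 1 and 3 as controls it was 1.13 (adjusted p = 0.00596). Without WT CD replicate 1 it was -0.02 (adjusted p = 0.948, against WT CD replicate 2 alone). Otulin shares 52275 bases with Ank on the opposite strand. The library kit was stranded per the labels, while the strand setting of the counting is not given in the sources used here.

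Cyld (ENSMUSG00000036712, chromosome 8, 88697028 to 88751945, plus strand) and its adaptor Spata2 (ENSMUSG00000047030, chromosome 2, 167481133 to 167492887, minus strand) were not called in any comparison. Cyld had 48.3, 44.6 and 42.8 CPM in WT HFD and 38.7, 39.9 and 34.1 CPM in HoipA-KO HFD. These groups did not overlap, at a log2 fold change of -0.27 (95% interval -0.57 to 0.03, adjusted p = 0.258). In CD tissue Cyld had 40.9, 36.6 and 29.2 CPM in WT and 41.2, 47.1 and 31.2 CPM in HoipA-KO, which overlapped. Spata2 lay between 18.5 and 28.0 CPM in all 12 libraries. The extremes were both from WT CD, and the genotype difference was 0.13 on CD (SE 0.172, adjusted p = 0.573) and 0.02 on HFD (SE 0.154, adjusted p = 0.941). Leaving out WT CD replicate 1 moved the value of Spata2 on CD to 0.45 (adjusted p = 0.0309), and leaving out WT CD replicate 2 moved it to -0.13 (adjusted p = 0.503), each against the 1 WT CD library that remained.

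Tnip1 (ENSMUSG00000020400, chromosome 11, 54910785 to 54962917, minus strand), which encodes the A20-binding protein ABIN-1, was low in WT CD and higher in every other group. WT CD libraries had 31.7, 43.0 and 19.8 CPM, below all 9 others. The level was 58.3, 59.0 and 65.0 CPM in WT HFD, 58.3, 54.8 and 61.7 CPM in HoipA-KO CD, and 52.0, 56.7 and 51.5 CPM in HoipA-KO HFD. On CD, Tnip1 was thus 1.56-fold higher in HoipA-KO than in WT (log2 fold change 0.65, SE 0.148, adjusted p = 0.00851, and 0.85, adjusted p = 0.0198, over 12 libraries). In WT mice it was 1.63-fold higher on HFD than on CD (0.71, SE 0.148, adjusted p = 0.0156, and 0.94, adjusted p = 0.0283, over 12 libraries). Both comparisons share the WT CD libraries.

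On HFD the genotypes did not overlap in the opposite order, with HoipA-KO below WT, but the difference did not pass the test (log2 fold change -0.19, SE 0.13, adjusted p = 0.344). The effect of genotype on HFD was lower than that on CD by 0.83 on the log2 scale (difference -0.83, SE 0.196, adjusted p = 0.0485, and -1.06, adjusted p = 0.118, over 12 libraries). This interaction was kept in 1 of 11 fits that each left out 1 library, the fit without WT CD replicate 1 (-0.64, adjusted p = 0.039, with 1 WT CD library left), and the highest adjusted p was 0.208, without WT HFD replicate 3. Without WT CD replicate 2, which holds epididymal transcripts, the value on CD was 0.88 (adjusted p = 0.00373, against WT CD replicate 1 alone). It was 0.53 without HoipA-KO HFD replicate 1 (adjusted p = 0.0395), and in the 11 fits the call was lost only without HoipA-KO CD replicate 3 (0.49, adjusted p = 0.0668). It was lost as well with only the 2 groups compared (adjusted p = 0.0806). The diet effect in WT was lost without WT HFD replicate 3 (0.55, adjusted p = 0.113) and without HoipA-KO HFD replicate 3 (0.61, adjusted p = 0.0558), and with no filter on low counts (0.0511) or only the 2 groups compared (0.153).

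Tnfaip3 (ENSMUSG00000019850, chromosome 10, 19000910 to 19015657, minus strand) encodes A20, which edits ubiquitin chains on receptor complexes. It had 21.6, 8.72 and 8.58 CPM in WT CD and 34.9, 24.9 and 22.6 CPM in HoipA-KO CD. The groups did not overlap, but WT CD replicate 1 stood well above the other libraries of its group. The log2 fold change was 0.86 with a wide error (SE 0.374, adjusted p = 0.0959, and 1.05, adjusted p = 0.0506, over 12 libraries). Without WT CD replicate 1 it was 1.65 (adjusted p = 0.00769), and without WT CD replicate 2 it was 0.35 (adjusted p = 0.441), each against the 1 WT CD library that remained. On HFD the libraries overlapped, with 25.9, 15.8 and 23.2 CPM in WT and 28.1, 29.3 and 21.7 CPM in HoipA-KO (0.29, SE 0.326, adjusted p = 0.571).

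Ikbkg (ENSMUSG00000004221, chromosome X, 74393290 to 74453854, plus strand), the regulatory subunit of the IκB kinases, had 45.9, 44.4 and 20.7 CPM in WT CD and 54.7, 72.6 and 48.3 CPM in HoipA-KO CD. Both groups were apart, yet the change was not called (log2 fold change 0.38, SE 0.207, adjusted p = 0.174). On HFD the level was 55.2, 51.7 and 53.6 CPM in WT and 41.2, 57.6 and 39.6 CPM in HoipA-KO, with overlap (-0.21, SE 0.183, adjusted p = 0.442). Ikbkg shares 19712 bases with G6pdx on the opposite strand. Tab2 (ENSMUSG00000015755, chromosome 10, 7905653 to 7956230, minus strand), the chain-binding adaptor of the TAK1 kinase, was the member with the highest CPM, at 97.8, 104.0 and 58.2 CPM in WT CD and 106.0, 125.1 and 87.4 CPM in HoipA-KO CD. On HFD it ranged from 105.1 to 113.1 CPM in WT and from 108.0 to 121.6 CPM in HoipA-KO. The genotypes overlapped on both diets, and the log2 fold changes were 0.08 (SE 0.158, adjusted p = 0.726) and 0.06 (SE 0.141, adjusted p = 0.799).

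Of the 10 members, 2 were called higher and 0 lower in HoipA-KO against WT on CD, where 18.9% of all genes tested were called higher and 18.8% lower. The median log2 fold change of the members was 0.25, beside -0.06 over all genes, and their median absolute value was 0.25, beside 0.71 over all genes, low-count genes included. On HFD, 1 member was called higher and 0 lower, against 4.2% and 7.62% of all genes. With scaling to library totals the split of all calls on HFD was 1279 higher and 1133 lower, in place of 774 and 1405. The members had a median of 0.09 on HFD, beside 0.06 over all genes, and a median absolute value of 0.20, beside 0.45. On CD the share of members called higher, 2 of 10, is close to the share over all genes, and with 10 members 1 gene more or less moves a share by 10 percentage points.

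HFD against CD in WT called 1 member higher and 0 lower, against 9.35% and 5.47% of all genes (1723 and 1008 genes, or 2108 and 677 with scaling to library totals). In HoipA-KO mice, HFD against CD called 0 members, as 0% of genes were called higher and 0% lower by edgeR, with 306 genes higher and 109 lower at an unadjusted p under 0.05 and 7 and 0 genes by DESeq2. No member was under 0.05 there before adjustment, and the log2 fold changes of the members went from -0.34 (Ikbkg) to 0.10 (Tab2). The interaction of genotype and diet was called for 1 member in the lower direction and 0 in the higher one, against 3.58% and 0.331% of genes.

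In HoipA-KO CD, 4 members (Sharpin, Tnfaip3, Tnip1 and Ikbkg) lay above both WT CD libraries of the fit and 0 lay below, compared with 28.2% and 25.7% of genes. On HFD, 3 members lay above WT (Rbck1, Sharpin and Otulin) and 2 below (Cyld and Tnip1), compared with 20.8% and 22.7%. In WT mice, 4 members were higher on HFD without overlap (Cyld, Tnip1, Ikbkg and Tab2) and 2 were lower (Rnf31 and Sharpin), compared with 24.6% and 18.2%. With WT CD replicate 3 included, Rnf31 overlapped. In HoipA-KO mice 0 members stood apart by diet, where 3.4% of genes were higher and 2.47% lower without overlap.

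**Figure D2:**
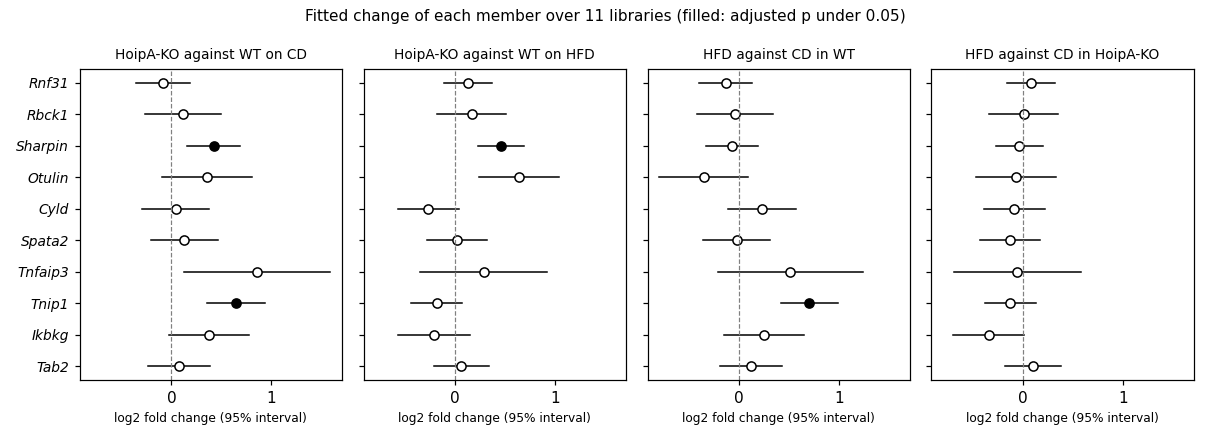
Log2 fold change (horizontal axis) of each member with its 95% interval in 4 comparisons over 11 libraries, filled where the adjusted p was under 0.05. Sharpin is filled in both genotype comparisons and Tnip1 on CD and for diet in WT, and in HoipA-KO mice all 10 values lie between -0.34 and 0.10.

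Ratios within a library do not depend on scaling, and they show how the mRNA of each member stood relative to Rnf31. Rnf31 is itself the targeted gene, and its counts do not resolve the deleted part. A ratio thus does not tell a change of the member from a change of Rnf31. Sharpin was above Rnf31 in every library, at a log2 ratio of 0.33, 0.44 and 1.06 in WT CD, and of 0.35 to 0.50 in WT HFD. The ratio was 0.86 to 0.92 in HoipA-KO CD and 0.63 to 0.92 in HoipA-KO HFD. The high WT CD value came from WT CD replicate 3, where Rnf31 was lowest. Otulin stood at 0.49 to 0.55 in WT HFD and at 0.83 to 1.32 in HoipA-KO HFD, without overlap. On CD its ratio overlapped, at 0.25 to 1.10 in WT and 0.97 to 1.33 in HoipA-KO. Tnip1 ranged from 0.64 to 1.05 in WT CD, and all other groups lay above that range, at 1.67 to 1.72 in WT HFD, 1.51 to 1.70 in HoipA-KO CD and 1.19 to 1.57 in HoipA-KO HFD. Rbck1 kept within 1.66 and 1.94 in all libraries but WT CD replicate 2, which was at 1.26.

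**Figure D3:**
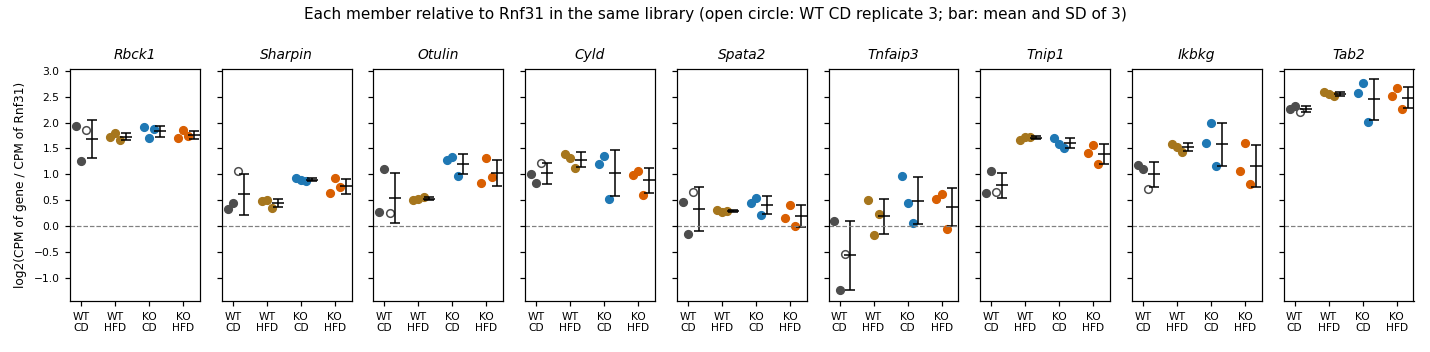
Log2 ratio of the CPM of 9 members to the CPM of Rnf31 in the same library (vertical axis), with 1 point per library, the open circle for WT CD replicate 3 and the bar for the mean and SD of 3. Tnip1 is lowest in WT CD, where it lies between 0.64 and 1.05, and Tnfaip3 has the widest range in WT CD, from -1.25 to 0.09.

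The wider pathway was followed with 46 partner genes in 8 lists, all of which passed the filter on low counts. On CD, 19 of them rose and 4 fell in HoipA-KO (18 and 3 over 12 libraries), compared with 18.9% and 18.8% of all genes tested. Their median log2 fold change was 0.38, beside -0.06 over all genes. On HFD, 7 rose and 3 fell (0 and 1 over 12 libraries), compared with 4.2% and 7.62% of all genes. In WT mice 6 rose and 0 fell on HFD (7 and 0 over 12 libraries), compared with 9.35% and 5.47%. In HoipA-KO mice 0 were called for diet, where 0% of all genes were. The interaction was called lower for 4 and higher for 0, compared with 3.58% and 0.331%.

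Among the ubiquitin readers and A20 partners, 3 of 8 rose and 1 fell on CD. Tnip3, which encodes the A20 binder ABIN-3, had the largest change, from 0.525, 0.723 and 0.476 CPM in WT CD to 33.8, 51.1 and 30.8 CPM in HoipA-KO CD (log2 fold change 5.94, SE 0.559, adjusted p = 0.000452). In WT HFD it was at 8.19, 14.9 and 25.4 CPM. Thus all 3 ABIN genes were called higher on CD, as Tnip2 (ABIN-2) rose as well (1.04, SE 0.196, adjusted p = 0.00349). Sqstm1, the autophagy receptor p62, rose by 1.31 (adjusted p = 0.0022). Rnf11, a partner of A20, was lower on CD at -0.76 (adjusted p = 0.0379, but 0.115 with all libraries) and on HFD at -1.41 (adjusted p = 0.0111). Optn, a reader of linear chains, had a value of -1.28 on HFD (adjusted p = 0.0226, but 0.0813 with all libraries), while on CD it had a value of -0.34 (adjusted p = 0.399).

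Of the deubiquitinases and paralogs of members, 1 of 4 rose and 1 fell on CD. Otulinl, the OTULIN paralog that lacks deubiquitinase activity, was higher in HoipA-KO, at log2 fold changes of 2.38 on CD (SE 0.279, adjusted p = 0.000513) and 1.07 on HFD (SE 0.229, adjusted p = 0.0227, but 0.0656 with all libraries). Its levels were 8.45, 14.6 and 6.9 CPM in WT CD, 22.8, 22.7 and 31.3 CPM in WT HFD, and 48.4 to 70.3 CPM in the 6 HoipA-KO libraries, which all lay above WT. Of the ubiquitin, E2 and p97 genes 1 of 7 rose on each diet, namely Ube2l3, an E2 that works with LUBAC, on CD (0.70, adjusted p = 0.0197) and the ubiquitin fusion gene Rps27a on HFD (0.81, adjusted p = 0.0275, but 0.141 with all libraries).

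In the TNF receptor 1 complex, 4 of 7 genes rose and 1 fell on CD, and 1 rose on HFD. Tnf itself was scarce, with 0.167, 0.383 and 0.457 CPM in WT CD and 4.26, 2.91 and 4.03 CPM in HoipA-KO CD (log2 fold change 3.75, SE 0.455, adjusted p = 0.00054). The adaptor Tradd rose on both diets (0.81, adjusted p = 0.00679, and 0.63, adjusted p = 0.0336). Birc2, the ubiquitin ligase cIAP1, fell on CD (-0.72, adjusted p = 0.0162). Of the IL-1 and Toll-like receptor adaptors 2 of 4 rose on CD, Irak4 (1.39, adjusted p = 0.0021) and Myd88 (0.94, adjusted p = 0.00323), and Myd88 also on HFD (0.64, adjusted p = 0.0306).

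For the TAK1 and IKK kinases, 4 of 8 rose and 1 fell on CD. Ikbke had 7.9, 5.87 and 5.43 CPM in WT CD and 38.0, 44.2 and 45.8 CPM in HoipA-KO CD (log2 fold change 2.63, SE 0.277, adjusted p = 0.000452), and it rose on HFD (0.87, adjusted p = 0.0378). The Tab genes went different ways. Tab1 was higher on both diets (0.69, adjusted p = 0.00796, and 0.54, adjusted p = 0.0367), Tab3, a paralog of Tab2, was lower on both (-0.88, adjusted p = 0.0146, and -0.78, adjusted p = 0.0414), and Tab2 was not called. In the cell death complex 3 of 5 rose on CD, with Ripk3 first (2.39, SE 0.259, adjusted p = 0.000452), then Mlkl (1.20, adjusted p = 0.0273) and Casp8 (0.67, adjusted p = 0.0234), and Ripk3 rose on HFD as well (0.92, adjusted p = 0.0276). Of the NF-κB core, Nfkb1 rose on CD (0.92, adjusted p = 0.00447), and 0 of 3 genes were called on HFD. The calls on HFD named here were not kept over all 12 libraries, except that of Rnf11 (adjusted p = 0.0358).

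**Figure D4:**
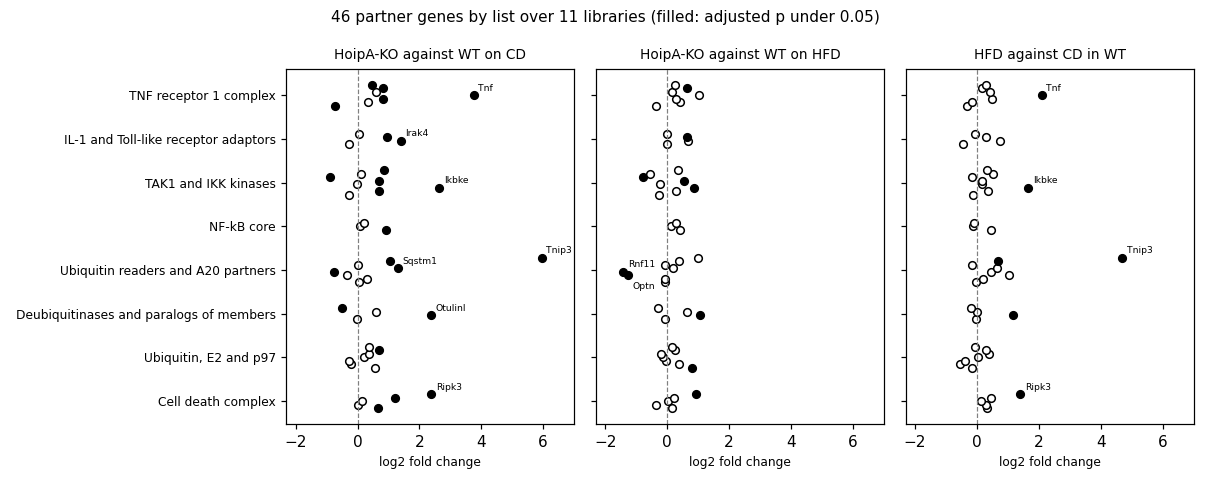
Log2 fold change (horizontal axis) of the 46 partner genes by list in 3 comparisons over 11 libraries, filled where the adjusted p was under 0.05, with names beside the largest called changes. More genes are filled on CD (19 higher, 4 lower) than on HFD (7 higher, 3 lower), and Tnip3 lies farthest to the right on CD and for diet in WT.

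Cell type markers moved with these groups, and in bulk tissue fewer cells of a type and less RNA per cell cannot be told apart. The 10 adipocyte markers summed to 13700 to 48280 CPM in WT CD, 21610 to 29260 in WT HFD, 6295 to 9149 in HoipA-KO CD and 5566 to 7947 in HoipA-KO HFD, so they were present in every library. On CD 9 of 10 were called lower in HoipA-KO, and on HFD 10 of 10. The 9 macrophage markers summed to 382.4 to 579.4 CPM in WT CD, 1645 to 4915 in WT HFD, 8226 to 12120 in HoipA-KO CD and 5862 to 10180 in HoipA-KO HFD, with 8 of 9 called higher on CD, 2 of 9 on HFD and 8 of 9 for diet in WT. Of the other lists on CD, 1 of 6 T cell markers was called higher, 0 of 4 B cell markers changed, 2 of 5 endothelial, 1 of 7 epididymal and 4 of 4 male germ cell markers were called lower. The male germ cell sums were 13.22 and 279.5 CPM in WT CD replicates 1 and 2, and at most 2.462 CPM in HoipA-KO CD. The epididymal sum of WT CD replicate 2 was 14680 CPM, as given above. On HFD 1 of 6 T cell markers was higher and 3 of 5 endothelial markers were lower, with 0 called for B cell, epididymal and male germ cell markers. No adipocyte or macrophage marker lay at or under the floor.

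Among the WT HFD libraries the macrophage sum went from 1645 to 4915 CPM and Tnip1 was at 58.3 to 65.0 CPM, and in HoipA-KO, with 5862 to 12120 CPM of macrophage markers, Tnip1 was at 51.5 to 61.7 CPM. In WT CD, at macrophage sums of 382.4 to 579.4 CPM, Tnip1 was lower, at 19.8 to 43.0 CPM. Sharpin was at 25.3 to 25.5 CPM in WT HFD, at 25.5 to 28.0 CPM in WT CD and at 30.5 to 39.4 CPM in HoipA-KO. Otulin was at 25.7 to 29.0 CPM in WT HFD and at 34.9 to 47.4 CPM in HoipA-KO. In WT CD replicates 1, 2 and 3 Otulin was at 24.4, 44.4 and 15.0 CPM. The adipocyte sums of the genotypes did not overlap on either diet, and neither did the macrophage sums. On each diet, genotype thus cannot be told apart from adipocyte or macrophage RNA. Endothelial sums also stood apart on HFD, at 712.9 to 869.1 CPM in WT and 316.9 to 519.6 CPM in HoipA-KO. The part of the other cell types in these results was not tested.

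**Figure D5:**
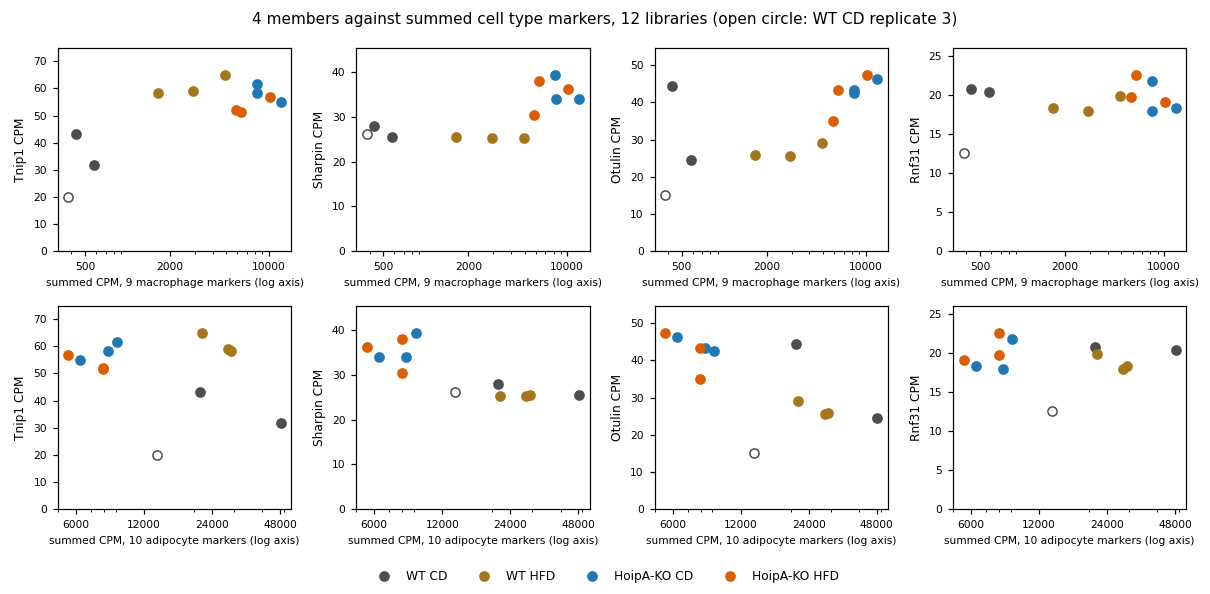
CPM of Tnip1, Sharpin, Otulin and Rnf31 (vertical axes, from 0) against the summed CPM of 9 macrophage markers (top) or 10 adipocyte markers (bottom, both log axes) in 12 libraries, with the open circle for WT CD replicate 3. In the upper left panel the 3 WT CD libraries lie low on both axes, and the other 9 libraries lie between 51.5 and 65.0 CPM of Tnip1 over macrophage sums from 1645 to 12120 CPM.

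Each member was set beside the gene whose log2(CPM + 1) correlated best with its own over the 12 libraries, among 10360 genes with a mean of at least 10 CPM. Such a best match is picked from many genes, and the libraries share their groups and scaling. The highest values were those of Otulin with Ncstn, a subunit of γ-secretase (Pearson's r 0.988), Sharpin with the splicing factor Srsf9 (0.981), Ikbkg with Fam120a (0.979) and Rbck1 with Ptms (0.974). Tab2 paired with Zfp120 (0.965), Cyld with the kinesin Kif5b (0.954), Tnfaip3 with the corepressor Bcor (0.951), Rnf31 with Commd4 (0.947), Tnip1 with the autophagy gene Uvrag (0.943) and Spata2 with Cyth1 (0.922). Without WT CD replicate 3 the value of Rnf31 with Commd4 was 0.779, that of Tab2 with Zfp120 was 0.847 and that of Tnip1 with Uvrag was 0.848, while the others stayed between 0.906 and 0.985. Srsf9 had the order of Sharpin, with 31.8 to 36.9 CPM in the 6 WT libraries and 44.9 to 59.4 CPM in the 6 HoipA-KO libraries.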

How the data were processed

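Bulk mRNA of GWAT was sequenced in 12 libraries (4 groups of 3, each of 3 pooled mice). The authors trimmed reads with Trim Galore 0.6.7, aligned them with STAR 2.7.10a and estimated counts per gene with Salmon 1.5.2, and these deposited estimated counts, without normalization, were used for all 55281 genes. The submitters' processing notes name GRCm38, so positions were taken from GENCODE and RefSeq tables of that build. Deposited tables of the authors' DESeq2 comparisons (fold changes and p-values) were not used. Counts were rounded, and genes passing filterByExpr were scaled by TMM and entered 1 model of 4 groups in edgeR 4.0.16 (R 4.3.3), over 11 libraries without WT CD replicate 3 and over all 12. Contrasts took the quasi-likelihood test with Benjamini-Hochberg adjustment at 0.05, and the procedure was tested on simulated data. Correlations of deviations, given below, did not settle whether replicate numbers pair libraries. The main fit used no block, and a block was an alternative.

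The members and lists were chosen with earlier results of these data known. All members are named. Partner genes are given by counts per list and by up to 12 called genes of largest change per genotype comparison. Birc2, Ube2l3, Casp8, Tradd, Tab1, Rnf11 and Optn on CD fall outside this rule and were named after their values were seen. Marker lists cover adipocytes, macrophages, T cells, B cells, endothelium, epididymal epithelium and male germ cells. Alternatives were DESeq2 1.42.0 (size factors or Wald test), library totals, no filter, at least 10 counts in every library, protein-coding genes, the 2 groups compared, a replicate block, leaving out each library, and, chosen after seeing the data, WT CD replicates 1 and 3 as controls. Pools are the replicates, and the floor covers counting error only. Intervals of 95% take the SE times a normal quantile, so they are narrower than the quasi-likelihood test would give. For Ikbkg in the interaction the interval excludes 0 (-1.13 to -0.051), while the unadjusted p of that test was 0.0584.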

Additional observations from a re-analysis of the deposited data

Results flagged for a closer look

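Tnip1 stood out because its genotype effects on the 2 diets differed by the test of the difference itself. The log2 fold change of HoipA-KO against WT was 0.65 on CD and -0.19 on HFD, and the effect on HFD minus that on CD was -0.83 (SE 0.196, adjusted p = 0.0485, edgeR's quasi-likelihood test over 11 libraries). The call was lost over all 12 libraries (adjusted p = 0.118), with DESeq2 size factors (0.0735), library totals (0.122), no filter on low counts (0.123), a filter at 10 counts per library (0.0726) or with protein-coding genes alone (0.0952), and in 10 of 11 fits that left out 1 library. It was held by DESeq2's Wald test (0.00653) and with WT CD replicates 1 and 3 as controls (0.0445). All 3 HoipA-KO CD libraries lay above all 3 WT CD libraries, and all 3 HoipA-KO HFD libraries lay below all 3 WT HFD libraries. Macrophage markers moved with these groups, and 5 of 9 of them were called lower in the same interaction. Their part in the result was not tested.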

How the results depend on the processing

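Limits. WT CD is the weakest group, with 2 libraries in the main comparisons and 3 that differ, and the biological coefficient of variation was 0.394 over 11 libraries and 0.514 over 12. Values near 0 change sign readily. For all results named below the cause of a change was not tested. Among log2 fold changes of members, 904 kept direction and side of the threshold, 49 lost their call, 12 gained one and 75 changed sign. The median of all genes moved by -0.14 on CD and 0.11 in the interaction with protein-coding genes only, by 0.10 in HoipA-KO by diet with library totals, and by -0.16 on CD with all 12 libraries. On CD with all 12 libraries, however, the median of the shifts of single genes was 0.03, in the other direction. The interaction rests on 4 groups, so a fit of only the 2 groups compared was not possible.

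Members called higher on CD numbered 1 in place of 2 with DESeq2 size factors, library totals, no filter on low counts, at least 10 counts in every library or protein-coding genes only, 0 with only the 2 groups compared, and 0 to 3 when each library was left out. On HFD they numbered 0 in place of 1 with no filter, protein-coding genes only, all 12 libraries or WT CD replicates 1 and 3, 2 with only the 2 groups compared or DESeq2's Wald test, and 0 to 2 when each library was left out. For diet in WT, members called higher numbered 0 in place of 1 with no filter or only the 2 groups compared and 0 to 2 over left-out libraries, and members called lower numbered 0 to 1. Members called lower in the interaction numbered 0 in place of 1 with DESeq2 size factors, library totals, no filter, at least 10 counts, protein-coding genes only, all 12 libraries or the replicate block, and 0 to 2 over left-out libraries. The replicate block, for numbers that libraries share by label (correlation of deviations -0.373 to 0.515, over 0.1 in 6 of 15 same-numbered pairs and 8 of 30 others), also moved Sharpin on CD to 0.38 (adjusted p = 0.0542) and Tnfaip3 on CD, not called without it, to 1.00 (adjusted p = 0.0416). It gave Tnip1 in the interaction -0.82 (adjusted p = 0.0859) and changed no other call of a member. All genes called on HFD fell from 774 higher and 1405 lower to 96 and 407 with all 12 libraries, and rose to 2216 and 2239 with DESeq2's Wald test.

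Signs changed on CD for Rnf31 with all 12 libraries (0.076) and WT CD replicates 1 and 3 (0.20), for Rbck1 (-0.0053) and Tab2 (-0.072) with protein-coding genes only, and for Cyld with DESeq2 size factors (-0.0027), no filter (-0.0090), at least 10 counts (-0.019), protein-coding genes only (-0.10) and the Wald test (-0.0025). On HFD Spata2 was -0.011 with protein-coding genes only. For diet in WT, Rnf31 was 0.054, Rbck1 0.092 and Spata2 0.037 with all 12 libraries, Rnf31 0.18, Rbck1 0.00043 and Otulin 0.45 with WT CD replicates 1 and 3, and Rbck1 0.022 and Spata2 0.038 with library totals. For diet in HoipA-KO, Rbck1 was -0.013 without a filter, and with library totals Sharpin was 0.057, Otulin 0.021, Cyld 0.026 and Tnfaip3 0.035. In the interaction, WT CD replicates 1 and 3 gave Rnf31 -0.091, Sharpin -0.0015 and Otulin -0.51, all 12 libraries gave Rbck1 -0.077, and Tab2 was 0.045 with DESeq2 size factors and the Wald test, 0.056 with library totals, 0.048 with no filter, 0.050 with at least 10 counts, and 0.098 with protein-coding genes only.

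Leaving out each library, values crossed 0 on CD for Rbck1 (-0.17 to 0.47), Otulin (-0.017 to 0.86), Cyld (-0.096 to 0.11), Spata2 (-0.13 to 0.45) and Tab2 (-0.058 to 0.12), and on HFD for Spata2 (-0.046 to 0.074). They did so for diet in WT for Rbck1 (-0.33 to 0.34), Otulin (-0.71 to 0.14), Spata2 (-0.29 to 0.32) and Tab2 (-0.0081 to 0.16), and for diet in HoipA-KO for Rbck1 (-0.086 to 0.14), Sharpin (-0.097 to 0.064), Otulin (-0.17 to 0.057), Cyld (-0.22 to 0.053), Tnfaip3 (-0.17 to 0.15) and Tab2 (-0.0071 to 0.24). In the interaction they did so for Rbck1 (-0.33 to 0.34), Sharpin (-0.034 to 0.23), Otulin (-0.22 to 0.64), Spata2 (-0.45 to 0.16) and Tab2 (-0.070 to 0.12).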
